A study of Mus musculus with 16 samples.

Results

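Imprinted genes transcribed from the paternal copy and lying outside the large imprinted clusters, 10 in all, were followed in mouse iPSC lines: Plagl1, Impact, Mest, Peg10, Sgce, Nnat, Zrsr1, Mcts2, Nap1l5 and Inpp5f. They were chosen by gene name, and all 10 were found among the 55471 genes of the DNA methylation table and the 43984 genes of the histone table. The lines came from kidney proximal tubule cells (PTC11 and PTC12) and from tail tip fibroblasts (TTF1 and TTF4). All 4 lines derive from adult mice with 4 transgenes: OKMS-250 for doxycycline-inducible Oct4, Klf4, c-Myc and Sox2, rtTAROSA (neo-in), tdTomato and SLC34a1-GCE. In PTC the Cre that opens the reprogramming system is driven by the SLC34a1 promoter after tamoxifen feeding, and sorted tdTomato+/GFP+ cells were used. In TTF the Cre came from an episomal plasmid. Each line is a clonal line that no longer needed doxycycline, so a difference between lines is also a difference between clones. Per the methods, the lines were kept on mouse embryonic fibroblast feeder cells before differentiation. Per the methods the ChIP was done in duplicate, but 1 library per line was analysed here for each of CpG methylation, H3K4me3 and H3K36me3, so that each origin had n = 2 lines and the spread within a line is not known.

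An imprinted gene is expressed from only one parental copy, and the copy is chosen by DNA methylation laid down in the egg or the sperm. At paternally expressed genes of this kind, the maternal copy of the promoter is methylated and silent, and the paternal copy is unmethylated and active. A cell that keeps the imprint therefore shows a methylated fraction near 0.5 at such a promoter when reads from both copies are pooled, and both loss and gain of the imprint move the fraction away from it. Imprints are kept after fertilisation by the zinc finger protein ZFP57, which binds the methylated hexamer TGCCGC, and by its partner TRIM28. Pluripotent stem cells in culture are known to lose or gain imprints in a way that varies from line to line. H3K4me3 marks the start of active genes and H3K36me3 marks bodies of transcribed genes.

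At the starts used in the methylation table, none of the 10 genes had a methylated fraction from 0.3 to 0.7 in all 4 lines. The share over the 50657 genes with a value in all 4 lines was 3.23%, so 0 of 10 does not set these genes apart. At Plagl1, Impact and Mest the start used is not the one richest in CpGs, and the imprinted transcripts of Inpp5f start inside the gene. Peg10 and Sgce share a promoter, and whether imprints were kept was not tested. At the starts used in the methylation table, Zrsr1 and Inpp5f came closest. Both left the range in a single line, and both stayed from 0.25 to 0.75 in all 4 lines (2 of 10, against 8.1% of all genes). Peg10 and Sgce also left it in a single line, PTC12. Plagl1, Mcts2 and Impact ranged from under 0.2 in TTF1 to over 0.6 in TTF4, while Nnat, Nap1l5 and Mest had 0.828 to 0.941 in PTC12 and TTF4.

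**Figure D1:**
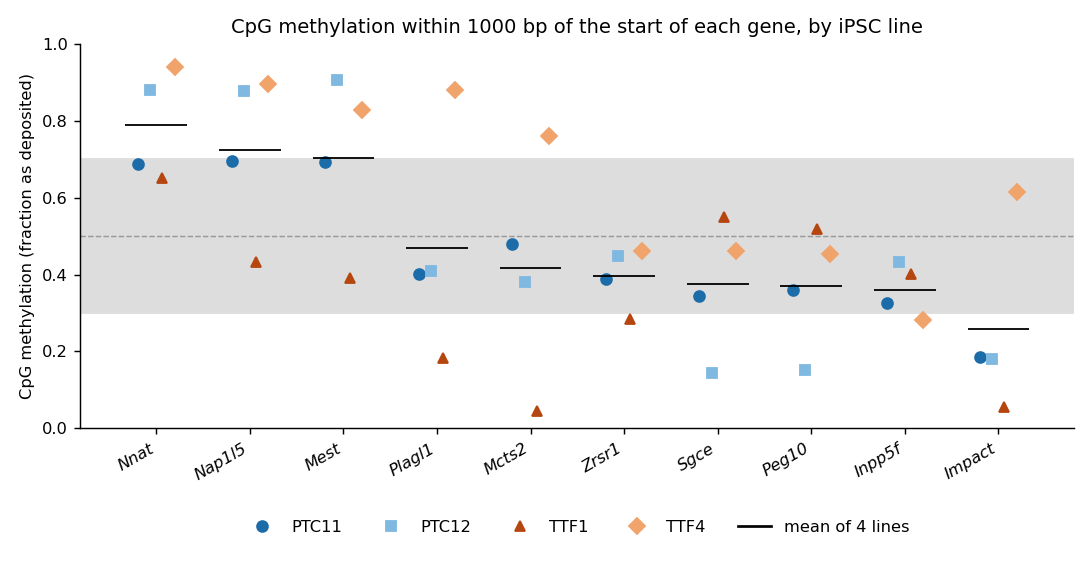
Fraction of methylated CpGs within 1000 bp of the start of each gene, as deposited, with 1 point per iPSC line and a black bar at the mean of the 4 lines. The grey band runs from 0.3 to 0.7 and the dashed line is at 0.5; Zrsr1 and Inpp5f hold their 4 points closest together, and TTF1 is the lowest point in 7 of the 10 genes.

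Which promoter a methylation value describes was settled first, because several of these genes have more than 1 start. The methylation table gives 1 value per gene, averaged over 1000 bp to each side of the outermost annotated start on mm10. Genes that share this start had identical values in 38 of 38 groups, whereas genes that share only the other end did so in 7 of 56. The windows of the 10 genes held between 18 CpGs (Mest) and 128 CpGs (Peg10), where the median over all windows was 25.

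At Peg10, Sgce, Nnat, Mcts2, Nap1l5 and Zrsr1 the window covered every transcript start of the GENCODE basic set, its subset of representative transcripts. Peg10 (chr6:4747306-4760517, plus strand), a retrotransposon-derived gene needed in the placenta, and Sgce (chr6:4674350-4747207, minus strand), which encodes epsilon-sarcoglycan, start 99 bp apart and run in opposite directions. Their windows share 1902 bp, so their methylation values are almost the same measurement and differed by at most 0.0316 in any line. Nnat (chr2:157560078-157562522, plus strand) encodes neuronatin, a small membrane protein of the endoplasmic reticulum. Zrsr1 (chr11:22972005-22976496, plus strand), Mcts2 (chr2:152687035-152687946, plus strand) and Nap1l5 (chr6:58905233-58907076, minus strand) are retrogenes, copies made by reverse transcription of an mRNA, related to a splicing factor, a translation factor and a nucleosome assembly protein.

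At the other 4 genes the window missed some or all of the starts in the basic set. The window of Mest (chr6:30723547-30748465, plus strand), which encodes an alpha/beta hydrolase, held 18 CpGs and 0 of 3 basic starts, and the CpG-rich start with 110 CpGs lay 14503 bp downstream. The window of Plagl1 (chr10:13060504-13131694, plus strand), a zinc finger transcription factor that restrains growth, held 0 of 3 basic starts, and the richest start lay 30509 bp downstream with 112 CpGs. Impact, on chromosome 18, encodes an inhibitor of the stress kinase GCN2, and its window held 36 CpGs and 0 of 1 basic starts, 18446 bp before the richest start with 108 CpGs. Inpp5f (chr7:128611328-128696425, plus strand), an inositol phosphatase, had 1 of 3 basic starts in its window. The shorter transcripts of Inpp5f that are known to be imprinted start inside the gene, and in the annotation basic starts lay 76218 and 77161 bp downstream of the window centre.

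**Figure D2:**
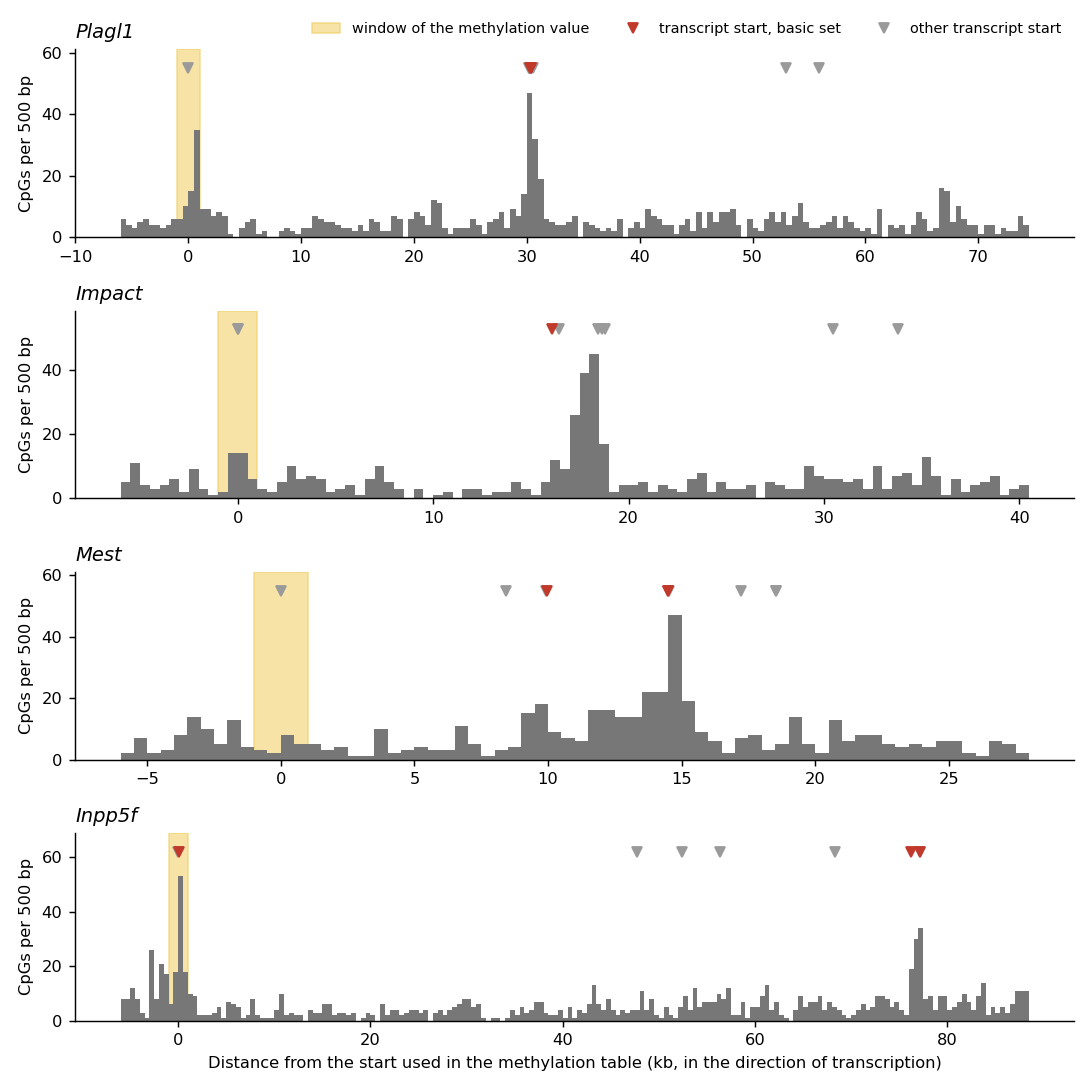
CpGs per 500 bp along Plagl1, Impact, Mest and Inpp5f, by distance in kb from the start used in the methylation table, with the window of the methylation value shaded. Triangles mark transcript starts, red for the GENCODE basic set; at Plagl1, Impact and Mest the red triangles all lie outside the shaded window, and at Inpp5f 1 of the 3 lies within it.

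The bases upstream of the start are shown for the 7 genes that had a promoter in the RefSeq table (build GRCm38.p6), to set the CpG content of each beside its methylation. CpGs are in capitals, the sequence runs 5′ to 3′ on the strand of the gene, and annotated untranslated bases were left out. The first 5 lie in or overlap the window of the methylation value, and those of Plagl1 and Mest lie at the downstream starts that it misses.
Zrsr1, chr11:22971755-22972004, plus strand: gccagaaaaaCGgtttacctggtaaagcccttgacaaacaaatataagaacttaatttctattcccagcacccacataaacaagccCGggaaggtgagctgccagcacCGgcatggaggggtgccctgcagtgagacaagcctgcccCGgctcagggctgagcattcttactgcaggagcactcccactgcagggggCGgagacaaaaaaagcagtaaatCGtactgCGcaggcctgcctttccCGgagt
Inpp5f, chr7:128611115-128611359, plus strand: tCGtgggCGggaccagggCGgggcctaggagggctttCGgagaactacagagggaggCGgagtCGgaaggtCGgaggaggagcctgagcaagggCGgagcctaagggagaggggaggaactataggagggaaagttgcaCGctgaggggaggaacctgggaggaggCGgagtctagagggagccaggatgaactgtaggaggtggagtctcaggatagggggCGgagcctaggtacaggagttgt
Mcts2, chr2:152686898-152687034, plus strand: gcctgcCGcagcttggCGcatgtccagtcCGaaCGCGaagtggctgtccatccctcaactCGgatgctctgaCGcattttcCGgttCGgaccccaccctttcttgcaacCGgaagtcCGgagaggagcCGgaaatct
Nnat, chr2:157559828-157560077, plus strand: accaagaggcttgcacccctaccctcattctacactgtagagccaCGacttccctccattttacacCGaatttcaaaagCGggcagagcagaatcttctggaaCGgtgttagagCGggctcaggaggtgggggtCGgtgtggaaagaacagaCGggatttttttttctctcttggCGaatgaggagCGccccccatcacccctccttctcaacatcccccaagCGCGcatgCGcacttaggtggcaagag
Nap1l5, chr6:58907127-58907376, minus strand: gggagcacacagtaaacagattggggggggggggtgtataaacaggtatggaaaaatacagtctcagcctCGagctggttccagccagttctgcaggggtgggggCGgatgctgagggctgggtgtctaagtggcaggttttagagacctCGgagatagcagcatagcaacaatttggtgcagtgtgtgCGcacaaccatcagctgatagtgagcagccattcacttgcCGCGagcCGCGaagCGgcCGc
Plagl1, chr10:13090582-13090787, plus strand: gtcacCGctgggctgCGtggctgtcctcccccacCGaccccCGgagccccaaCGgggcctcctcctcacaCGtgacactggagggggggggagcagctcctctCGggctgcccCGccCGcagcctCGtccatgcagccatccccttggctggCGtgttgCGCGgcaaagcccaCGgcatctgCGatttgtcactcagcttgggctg
Mest, chr6:30737800-30738049, plus strand: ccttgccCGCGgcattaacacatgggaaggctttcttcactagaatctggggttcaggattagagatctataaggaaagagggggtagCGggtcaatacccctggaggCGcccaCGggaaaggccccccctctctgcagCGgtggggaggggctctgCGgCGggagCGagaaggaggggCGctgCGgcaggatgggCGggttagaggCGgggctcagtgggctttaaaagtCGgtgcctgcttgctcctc

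These stretches held from 8 CpGs (Zrsr1) to 15 CpGs (Plagl1), where the median of 250 bases upstream over 32851 RefSeq promoters was 6. The hexamer TGCCGC, counted on both strands, occurred 6 times in the 2 kb window of Nnat, 5 times in that of Nap1l5, 3 times in that of Mcts2 and 2 times in each of the overlapping windows of Peg10 and Sgce. It did not occur in the windows of Zrsr1, Inpp5f, Plagl1, Impact or Mest. Of all windows, 28.5% held it and 3.72% held it 3 times or more. In the stretches printed above it occurred 1 time each for Plagl1, Mcts2 and Nap1l5 and 2 times for Mest, and 8.68% of RefSeq promoters held it in the same 250 bases.

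Zrsr1 and Inpp5f had the smallest spread among lines. The fraction at Zrsr1 was 0.389 and 0.449 in PTC11 and PTC12, and 0.285 and 0.461 in TTF1 and TTF4. Its mean was 0.396 ± 0.0804 (SD, n = 4 lines), and only TTF1 fell below 0.3. Inpp5f had 0.327, 0.433, 0.403 and 0.282 in the same order, and averaged 0.361 ± 0.0693 (SD, n = 4). Here TTF4, the line with the highest methylation over all genes, was the lowest of the lines, as it was at 2.99% of all genes.

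Peg10 and Sgce, which share their promoter, followed a pattern of their own among the 10 genes. Sgce had 0.345 and 0.143 in PTC11 and PTC12 and 0.551 and 0.463 in TTF1 and TTF4, and Peg10 had 0.360, 0.152, 0.519 and 0.454. PTC12 was the lowest line and TTF1 the highest, so that neither TTF line fell to the level of a PTC line. Over all genes the TTF lines were both above the PTC lines at 20.5% and TTF1 was highest at 6.17%. The 2 genes count as 1 promoter in any such comparison.

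Plagl1, Mcts2 and Impact showed the widest ranges. Mcts2 had 0.480 and 0.380 in PTC11 and PTC12 and 0.0439 and 0.762 in TTF1 and TTF4. Plagl1 had 0.402, 0.409, 0.184 and 0.880, and Impact had 0.186, 0.179, 0.0556 and 0.615. In each of the 3 the PTC lines lay close together and the TTF lines lay on either side of them, TTF1 below and TTF4 above. For Plagl1 the PTC lines averaged 0.406 ± 0.00528 and the TTF lines 0.532 ± 0.492 (SD, n = 2 each). The values of Plagl1 and Impact describe the outer start, away from the CpG-rich one.

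Nnat, Nap1l5 and Mest were the most methylated. Nnat had 0.687 and 0.880 in PTC11 and PTC12 and 0.651 and 0.941 in TTF1 and TTF4. Nap1l5 had 0.694, 0.877, 0.432 and 0.895, and Mest had 0.693, 0.906, 0.390 and 0.828. PTC11 and TTF1 lay within 0.3 to 0.7 at all 3 genes, and PTC12 and TTF4 lay above it. Over all genes these 2 lines were also both higher than the other 2 at 54.2%, against 5 of the 10 genes here. At Mest the window is CpG-poor, and windows with under 20 CpGs lay from 0.3 to 0.7 in all 4 lines in 5.64% of genes.

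Ordered by mean fraction the genes ran Nnat (0.790), Nap1l5 (0.725), Mest (0.704), Plagl1 (0.469), Mcts2 (0.416), Zrsr1 (0.396), Sgce (0.375), Peg10 (0.371), Inpp5f (0.361) and Impact (0.259). No 2 neighbours in this order differed by more than the larger of their SDs among lines. The largest step, from Mest to Plagl1, was 0.236, with SDs of 0.227 and 0.293.

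Seen by line, the order of the lines depended on the range taken as near 0.5. From 0.3 to 0.7 lay 9 of 10 in PTC11 (50.7% of all genes), 4 in PTC12 (41.7%), 6 in TTF1 (45.3%) and 4 in TTF4 (20.7%). Of the 9 in PTC11, Nap1l5, Mest and Nnat lay just under 0.7 (0.694, 0.693 and 0.687). From 0.4 to 0.6, PTC11 had the fewest, 2 of 10 (Plagl1 and Mcts2; 28.3% of all genes), against 3 in PTC12 (19.8%), 4 in TTF1 (24.5%) and 3 in TTF4 (8.42%). TTF4 had 5 of 10 above 0.7, where 58.8% of all genes were, and TTF1 had 4 of 10 below 0.3, where 42.6% were. PTC12 had 3 above and 3 below. Impact was the only one of the 10 outside 0.3 to 0.7 in PTC11. Counted over lines, 4 genes lay from 0.3 to 0.7 in 3 lines, 5 in 2 lines and 1 in 1 line, and over all genes these shares were 21.4%, 29.4% and 22.5%.

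The lines also differ in methylation as a whole. The mean over all genes was lowest in PTC11 (0.372) and TTF1 (0.379), higher in PTC12 (0.482) and highest in TTF4 (0.649), and the part of these differences in the values of single promoters was not tested. TTF4 was the highest line at 6 of the 10 genes, where it was highest at 75.4% of all genes. TTF1 was the lowest at 7 of 10 (41.4% of all genes) and PTC11 at 0 of 10 (42.0%). The 10 genes averaged 0.351 in TTF1 and 0.456 in PTC11, although these lines had nearly the same mean over all genes.

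Promoters rich in CpGs are as a rule unmethylated, and the windows of the imprinted genes were set beside them. Over the 13472 windows with 50 to 139 CpGs the median fraction was 0.0912 for PTC11, 0.131 for PTC12, 0.0928 for TTF1 and 0.261 for TTF4. Of the 8 imprinted genes with as many CpGs (all but Mest and Impact), 8 lay above that median in PTC11, PTC12 and TTF4 and 7 in TTF1, where Mcts2 was the exception. PTC11 had 8 of them above the 90th percentile of those windows, PTC12 had 6, TTF1 had 5 and TTF4 had 3. Among these 8, the Plagl1 window held 0 of 3 basic starts, and that of Inpp5f lies at the outer start. Because Peg10 and Sgce also share a promoter, the counts are not of 8 separate imprinted promoters. A fraction from 0.25 to 0.75 in all 4 lines, as at Zrsr1 and Inpp5f, was found in 2.72% of windows with 50 to 99 CpGs.

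A pair of other genes in the table start near the downstream starts of Plagl1 and Inpp5f, and their windows were looked up after the values were seen. Gm27741 starts on the minus strand at chr10:13091817 and its window covers 18 of the 25 annotated Plagl1 transcript starts, the CpG-rich one included. It had 0.368 and 0.628 in PTC11 and PTC12 and 0.281 and 0.542 in TTF1 and TTF4, a mean of 0.455 ± 0.159 (SD, n = 4). In TTF4 it was thus inside the range from 0.3 to 0.7 that the outer Plagl1 window left, and in TTF1 it lay just below the range. Gm43580 starts 46 bp from the intronic Inpp5f start, and 3 of the 9 Inpp5f transcripts start within its window. It had 0.672, 0.586, 0.468 and 0.884, and TTF4 was its highest line, where at the outer Inpp5f start TTF4 was the lowest. No listed gene of the methylation table started within 1000 bp of the CpG-rich Mest or Impact start, so that their methylation is not described here. With these 2 windows in place of the outer ones, still 0 of 10 genes lay from 0.3 to 0.7 in all 4 lines. From 0.25 to 0.75 there were again 2, but Plagl1 and Zrsr1 in place of Inpp5f and Zrsr1.

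Nnat, Zrsr1, Mcts2 and Nap1l5 each lie entirely within a larger gene whose own promoter is elsewhere, which allows a comparison at the same locus. The hosts are Blcap, Commd1, H13 and Herc3, and their starts lie from 10377 to 75611 bp away. The imprinted gene was more methylated than its host in all 4 lines for 3 of the 4 pairs. Nap1l5 exceeded Herc3 by 0.592 ± 0.195, Nnat exceeded Blcap by 0.353 ± 0.0989 and Zrsr1 exceeded Commd1 by 0.255 ± 0.0306 (mean difference in fraction ± SD, n = 4 lines). For Zrsr1 the difference was nearly constant, from 0.218 in TTF4 to 0.292 in PTC12. Mcts2 exceeded H13 by 0.268 ± 0.254, with 0.570 in TTF4 and -0.0172 in TTF1, so that in TTF1 both promoters were low.

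**Figure D3:**
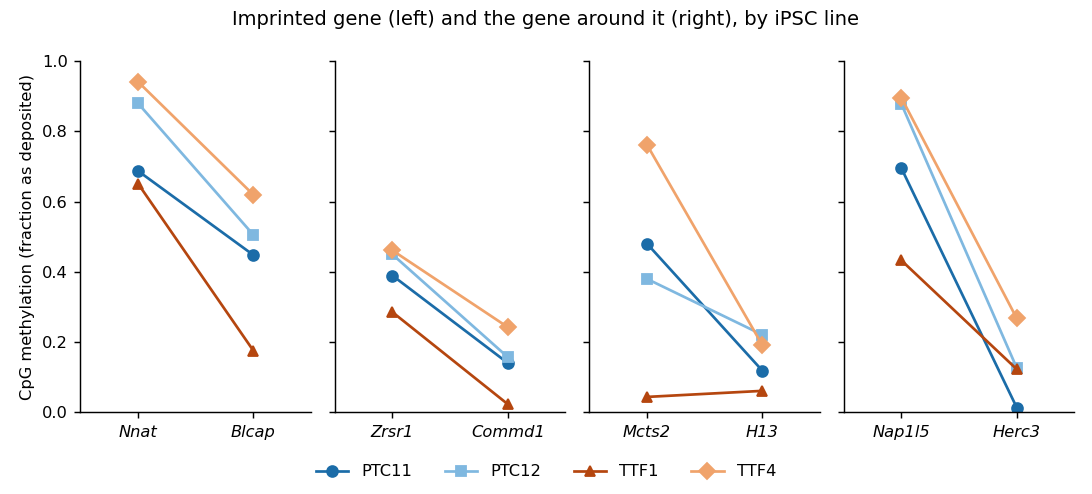
Fraction of methylated CpGs at 4 imprinted genes (left of each panel) and at the gene that surrounds each (right), as deposited, with 1 line of points per iPSC line. The line descends from left to right in every panel and iPSC line except TTF1 at Mcts2 and H13, where it is almost level.

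Of the 9 host and neighbour genes, 0 lay from 0.3 to 0.7 in all 4 lines (3.23% of all genes). All 9 fell below 0.3 in at least 1 line, a share that was not computed over all genes. Counted by line, 8, 8, 8 and 7 of the 9 were below it for PTC11, PTC12, TTF1 and TTF4. Among all genes the shares were 41.0%, 31.8%, 42.6% and 20.5%, with the lines taken in the same order. Blcap had the highest mean, 0.437 ± 0.188, and Osbpl1a beside Impact the next, 0.246 ± 0.0533, while Herc3 had 0.132 ± 0.104 and Mcmbp beside Inpp5f 0.106 ± 0.0309 (SD, n = 4). None of the 9 exceeded 0.7 in any line, and 5 of the 10 imprinted genes did. In TTF4, 58.8% of all genes were above 0.7, so the count of the imprinted genes is no higher than that share.

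Promoters within large imprinted clusters whose maternal copy is methylated from the egg were the group most like these genes. Of 8 listed, 7 had values, and 0 of 7 lay from 0.3 to 0.7 in all 4 lines (3.23% of all genes). Unlike for the 10 genes, the starts behind these values were not compared with the annotated transcripts. A value may therefore describe another start than the imprinted one. Peg13 and Snrpn had the highest means, 0.800 ± 0.232 and 0.605 ± 0.274, and Usp29 and Snurf the lowest, 0.419 ± 0.320 and 0.361 ± 0.230 (SD, n = 4). In TTF4 the 7 spanned from 0.0539 (Usp29) to 0.956 (Peg13), and the 10 genes outside the clusters from 0.282 (Inpp5f) to 0.941 (Nnat).

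Whether the lines differ by cell of origin was asked with limma over all genes, after the mean of its line was taken from each fraction. None of the 10 genes passed (0 of 10, smallest adjusted p = 0.999937, limma with Benjamini-Hochberg adjustment), where 0.00395% of all genes did, and 0 of 10 had an unadjusted p under 0.05. Mest had the largest difference, TTF minus PTC -0.278 (95% interval -0.569 to 0.0132). Its PTC lines averaged 0.800 ± 0.151 and its TTF lines 0.609 ± 0.309 as deposited (SD, n = 2). Sgce had a difference of 0.176 (-0.126 to 0.477) and Peg10 of 0.143 (-0.157 to 0.443). Nap1l5 had -0.209 (-0.493 to 0.0740), and the other 6 genes lay between -0.133 (Zrsr1) and 0.0655 (Impact).

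**Figure D4:**
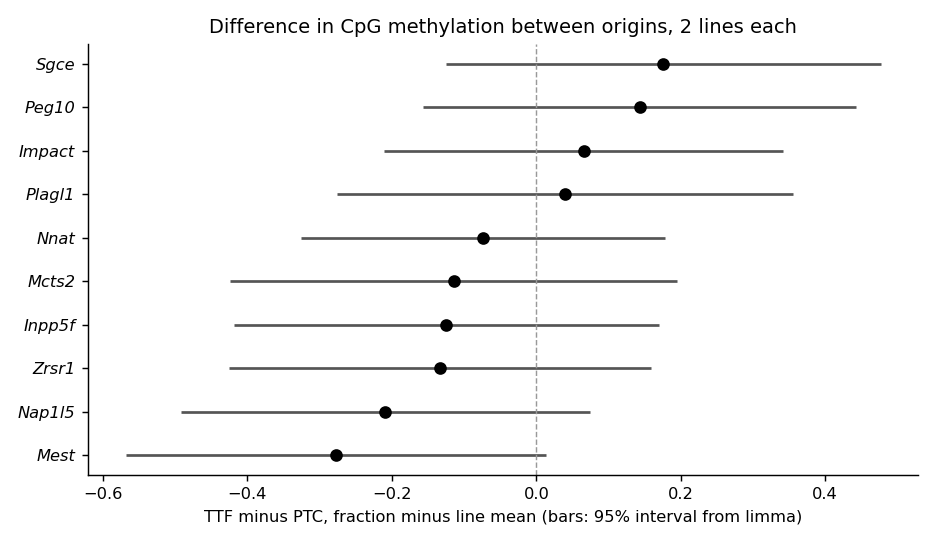
Difference in CpG methylation between origins for each gene, TTF minus PTC, as fraction minus the line mean, with dots for the estimate and bars for the 95% interval from limma (n = 2 lines per origin). All 10 intervals include 0, and that of Mest ends at 0.0132.

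Over the 10 genes the median difference was -0.0944, with 4 above 0 and 6 below, and over all genes it was -0.0100. The half-widths of the intervals ran from 0.252 to 0.316. With 2 lines per origin, a difference of less than about this size could not be told from 0 even before adjustment. After adjustment over all genes, larger differences also failed to pass, as at Peg3 below. An exact permutation test of 2 lines against 2 cannot give a two-sided p below 0.33. Of the 7 cluster promoters, Peg3, Usp29 and Peg13, named after their values were seen, had an unadjusted p under 0.05 in limma. Their TTF minus PTC was -0.367, -0.363 and -0.259, and 0 of 7 passed after adjustment. Peg3 and Usp29 had nearly equal fractions in every line, such as 0.804 and 0.809 in PTC12, and are not taken as separate results. Over all genes, 2392 of 50657 had an unadjusted p under 0.05.

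H3K4me3 is given as RPKM, input subtracted, averaged over the peaks near the start, and a gene without a peak has no value. PTC12 and TTF1 each had a value at 9 of the 10 genes (45.4% and 44.2% of all genes listed), and PTC11 and TTF4 at 6 (34.4% and 34.9%). Inpp5f had the highest level, with 4.01 and 6.44 RPKM in PTC11 and PTC12 and 6.44 and 4.23 RPKM in TTF1 and TTF4. Zrsr1 had 2.64, 4.58, 4.25 and 3.02, Plagl1 had 2.53, 4.04, 3.56 and 4.26, and Mcts2 had 3.19, 3.47, 2.65 and 2.51. These 4 genes were the only ones of the 10 with a value in all 4 lines, as were 31.2% of all genes listed. PTC12 and TTF1 were both above the other lines at 2 of the 4, Inpp5f and Zrsr1, and at 81.4% of all genes.

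The remaining genes lacked a value in at least 1 line. Impact had 2.84, 3.33 and 3.34 RPKM in PTC11, PTC12 and TTF1, and Nnat had 3.47, 3.27 and 3.57 in the same lines, and neither had a value in TTF4. Peg10 and Sgce had none in PTC11, shared a value of 4.24 in TTF1, and had 4.10 and 3.47 in PTC12 and 2.85 and 2.43 in TTF4. In PTC12, where the methylation of this promoter pair was lowest, H3K4me3 in RPKM was thus not above its level in TTF1. Ranked among the genes with a value in the same line, Peg10 stood above 39.9% in PTC12 and 35.6% in TTF1. Sgce stood above 29.2% in PTC12 and 35.6% in TTF1. Nap1l5 had a value in PTC12 (1.49) and TTF1 (3.06) alone.

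Mest had no H3K4me3 value in any line, and its CpG-rich start lies outside the stretch from 2 kb before to 3 kb after the start over which peaks were averaged. For Plagl1 and Impact the histone table uses another start than the methylation table, 30187 and 16400 bp further downstream, and at those the richest start lay inside that stretch. The methylation and H3K4me3 values of these 2 genes therefore describe different promoters.

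**Figure D5:**
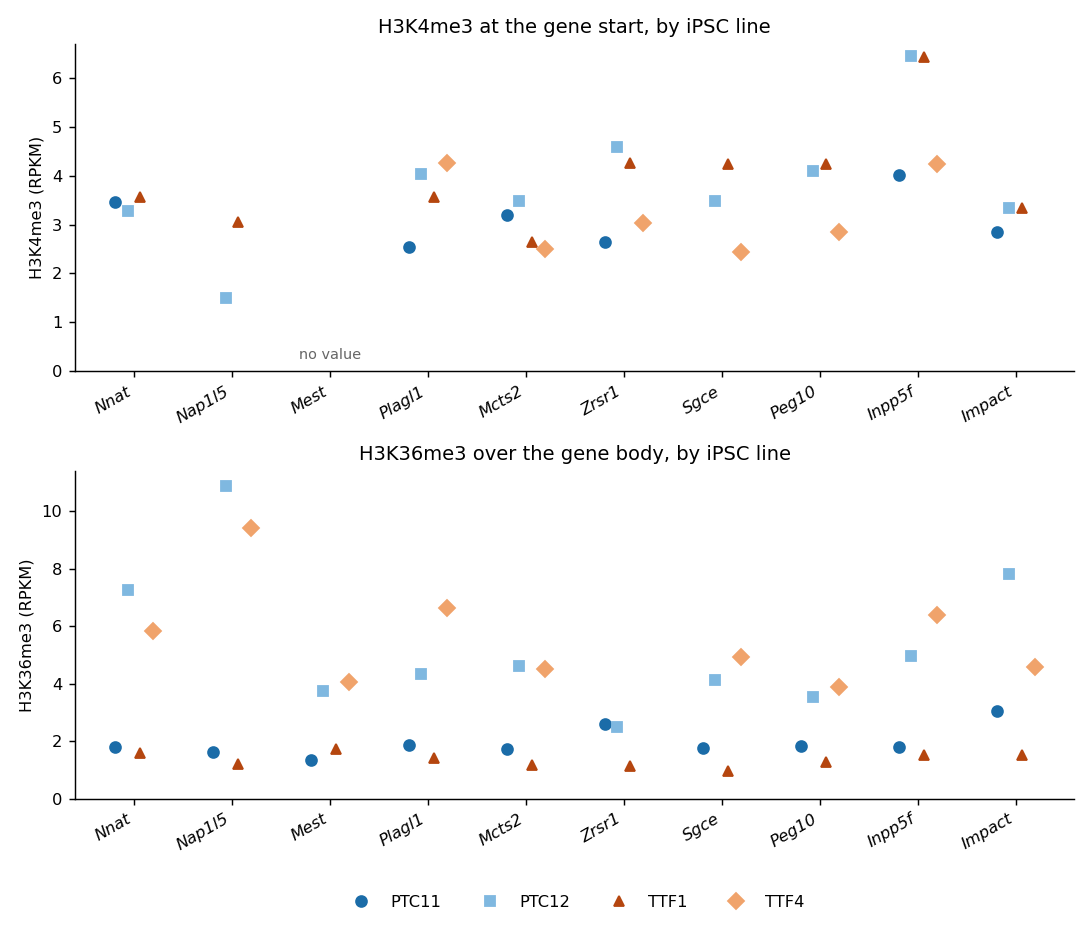
H3K4me3 at the gene start (upper panel) and H3K36me3 over the gene body (lower panel) in RPKM, with 1 point per iPSC line and no point where a gene has no value; the genes are in the order of mean CpG methylation. In the lower panel PTC12 and TTF4 stand above PTC11 and TTF1 at every gene except Zrsr1.

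H3K36me3, the mark of transcribed gene bodies, had a value at all 10 genes in PTC11, PTC12 and TTF1 and at 9 in TTF4. Of all genes listed, 68.0%, 52.5%, 53.4% and 46.3% had one in PTC11, PTC12, TTF1 and TTF4. Nap1l5 had the highest level, with 1.63 and 10.9 RPKM in PTC11 and PTC12 and 1.21 and 9.40 RPKM in TTF1 and TTF4. Nnat had 1.80, 7.26, 1.57 and 5.85, and Impact 3.04, 7.83, 1.53 and 4.57. PTC12 and TTF4 were both above PTC11 and TTF1 at 9 of the 9 genes with 4 values, as at 93.6% of all genes, and the medians over genes with 4 values were 4.04 and 4.07 RPKM in these lines against 1.66 and 1.21 in PTC11 and TTF1. Zrsr1 differed, with 2.59 and 2.50 RPKM in PTC11 and PTC12, 1.12 RPKM in TTF1 and no value in TTF4. Its level in PTC11 was above 95.3% of the genes with a value in that line, and its level in PTC12 above 17.0%.

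Plagl1, Inpp5f and Sgce were highest in TTF4, with 6.65, 6.41 and 4.91 RPKM, and lowest in TTF1, with 1.40, 1.51 and 0.947. Peg10 ran from 1.26 in TTF1 to 3.87 in TTF4, Mcts2 from 1.16 in TTF1 to 4.60 in PTC12, and Mest from 1.34 in PTC11 to 4.06 in TTF4. Mest was thus marked over its body in every line although it had no H3K4me3 value at its listed start. Ranked instead among the genes with a value in the same line, Sgce and Mcts2 kept their highest and lowest lines. Plagl1 and Inpp5f kept TTF4 as their highest line, but their lowest became PTC12 and PTC11. Mest kept PTC11 as its lowest but was highest in TTF1, where it stood above 88.6% of those genes, against 51.6% in TTF4. Peg10 kept neither. Nnat, Zrsr1, Mcts2 and Nap1l5 lie wholly inside their hosts, and ChIP reads carry no strand, so that H3K36me3 of the imprinted gene and of the host cannot be told apart there. Nap1l5 was above Herc3 by 0.84 in PTC12 and 0.54 in TTF4 and below it by 0.15 in PTC11 and 0.13 in TTF1, as differences in log2(RPKM + 1).

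Neither histone mark passed the test between origins at these genes, but the test was weak. Unlike the fractions, the values were not centred by line, so that differences in level between lines of the same origin entered the spread. With limma on log2(RPKM + 1), 0 of 4 tested genes passed for H3K4me3 (0.481% of all genes) and 0 of 9 for H3K36me3 (0.112% of all genes), all with adjusted p = 1.0, and 0 had an unadjusted p under 0.05 in either mark. For H3K4me3, Mcts2 had the largest difference, TTF minus PTC -0.28 (95% interval -0.80 to 0.25). Its TTF lines were both below its PTC lines, as at 3.17% of all genes. Plagl1 had 0.22 (-0.44 to 0.87), and Inpp5f and Zrsr1 had 0.03 each. For H3K36me3 the differences ran from -0.67 for Impact (-3.24 to 1.90) to 0.15 for Mest, with half-widths of 1.96 to 2.74 on the log2 scale. Changes of less than that could not be told from 0 even before adjustment over all genes. The median over all genes was 0.04 for H3K4me3 and -0.14 for H3K36me3. Only 134 of 13709 genes for H3K4me3 and 116 of 17039 for H3K36me3 had an unadjusted p under 0.05 in limma. With quantile normalization, which gives the lines the same distribution, 318 and 502 genes did, and again 0 of the 4 and 0 of the 9 passed.

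H3K27me3, a mark of repressed genes, had no value at any of the 10 genes in any of its 4 libraries. The libraries had a value at only 69 and 144 genes (both labelled PTC11), 52 genes (TTF1) and 11 genes (TTF4), so that few genes of any kind could be read for this mark.

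Genes that keep or erase imprints were listed beside the imprinted genes. Of the 13, 0 of 13 tested for methylation, 0 of 7 for H3K4me3 and 0 of 10 for H3K36me3 passed limma, and 0, 1 (Setdb1, named after its value was seen) and 0 had an unadjusted p under 0.05. Of the host and neighbour genes, 0 of 9, 0 of 8 and 0 of 9 passed, and of the cluster promoters 0 of 7, 0 of 3 and 0 of 4. Dnmt1, the maintenance methyltransferase, and Tet1, which oxidises methylated cytosine, had the highest mean fractions, 0.693 ± 0.178 and 0.632 ± 0.304, and Tet2 and Ctcf the lowest, 0.0408 ± 0.0391 and 0.0134 ± 0.0104 (SD, n = 4). These fractions too describe the outermost annotated start, and whether it is the start in use was not checked. Dnmt1 had an H3K4me3 value in PTC12 alone and Tet1 in PTC12 and TTF1, while both had H3K36me3 in all 4 lines. Trim28, the partner of ZFP57 and named outside the rule for these lists, had 0.531 ± 0.210. It was the only one of the 13 from 0.25 to 0.75 in all 4 lines, where 8.1% of all genes were. Its H3K4me3 ran from 3.65 RPKM in TTF4 to 5.08 in TTF1.

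The cell type of the lines was checked on H3K4me3. Pluripotency genes had a value at 8 of 9 in PTC11, PTC12 and TTF1 and at 7 in TTF4, with summed levels from 25.9 to 40.6 RPKM, and Pou5f1, Nanog and Sox2 had one in all 4 lines. Of 6 fibroblast genes PTC11 had a value at 2, PTC12 at 5, TTF1 at 5 and TTF4 at 4, with summed levels of 5.88, 19.4, 19.2 and 14.2 RPKM. Col1a1 and Col1a2 had no value in PTC11 and had one in the other 3 lines, TTF and PTC alike. Proximal tubule genes had a value at 1 to 3 of 6. Slc34a1 had none in any line, and Hnf4a and Aqp1 had one in PTC12 alone. Lrp2 had 4.01, 5.97, 7.15 and 4.16 RPKM in PTC11, PTC12, TTF1 and TTF4. Of all genes listed, 34.4%, 45.4%, 44.2% and 34.9% had an H3K4me3 value in the same order of lines. Any share of feeder or other cells in these values, and its part in the line differences above, was not tested.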

How the data were processed

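CpG methylation (nanopore) and ChIP-seq of H3K4me3, H3K36me3 and H3K27me3 were measured in 4 mouse iPSC lines, 16 libraries in all. The authors aligned reads to mm10, and called CpGs with Nanopolish. Per gene, the authors deposited a methylated fraction, the average of 300 bp windows moved by 30 bp within 1000 bp of the start. For the histone marks, the authors called peaks with MACS2 2.0.10, subtracted input and deposited an average RPKM over a gene's peaks. Neither table gives reads or coverage, so that depth is unknown and no counting error can be given.

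Groups came from the sample labels. Per the methods the 2 lines of an origin came from separate mice, and p-values measure the spread between these lines only. Genes measured in each of the 4 lines entered the comparison of origins with limma 3.58.1 in R 4.3.3 (lmFit, eBayes with trend) on the fraction minus the mean of its line, as the study centres it, or on log2(RPKM + 1), a scale that understates changes of low values. Adjustment was by Benjamini-Hochberg over all genes at 0.05. The step was tested on simulated data. H3K27me3 was not tested, since both PTC libraries carry the name PTC11.

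The 10 members, the lists and the range from 0.3 to 0.7 were chosen with earlier results of these data known. All members are named. Of the lists, genes past the threshold or in the range, the 2 highest and 2 lowest by mean fraction, and the host around each member are named. Peg3, Setdb1 and Trim28 are named outside this rule. Transcript starts are from GENCODE vM21 and sequences from RefSeq (GRCm38.p6). Python 3.11.15 with pandas 2.3.3 and pysam 0.24.0 did the rest. Alternatives left out each line, paired the lines, and varied scale, pseudocount, centring, filters, normalization and range.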

Additional observations from a re-analysis of the deposited data

How the results depend on the processing

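The count of genes from 0.3 to 0.7 in all 4 lines was 0 of 10, and it remained 0 with the range from 0.4 to 0.6, with the line means set equal and with the windows of Gm27741 and Gm43580 in place of those of Plagl1 and Inpp5f (chosen after seeing the data). It was 2 with the range from 0.25 to 0.75 (Zrsr1 and Inpp5f, or Zrsr1 and Plagl1 with those other windows) and 6 when the mean of the 4 lines was used (Plagl1, Peg10, Sgce, Zrsr1, Mcts2 and Inpp5f). Leaving out 1 line at a time it ran from 0 to 2: without PTC11 0, without PTC12 2 (Peg10 and Sgce), without TTF1 1 (Zrsr1) and without TTF4 1 (Inpp5f).

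PTC and TTF lines have no number in common. The replicate block of PTC11 with TTF1 and PTC12 with TTF4 changed no call at the 10 genes, with 0 passing in each assay. Deviations of PTC11 and TTF1 from their origin means correlated at 0.115 for methylation, -0.419 for H3K4me3 and 0.470 for H3K36me3 across genes. Over all genes the block called 24, 34 and 167 genes, against 2, 66 and 19 without it, and the crossed pairing 24, 2 and 0.

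No gene of the 10 passed under any of 13 alternatives for methylation (12 at Mest) or 12 for each histone mark, and the smallest adjusted p in limma was 0.180 for methylation, 0.961 for H3K4me3 and 0.156 for H3K36me3. Leaving out 1 line changed the sign of the difference at 6 of 10 genes for methylation, 3 of 4 for H3K4me3 and 8 of 9 for H3K36me3. Unknown coverage and 2 lines per origin limit what these values can show.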
